A study of Mus musculus with 2 samples.

Results

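Binding of the zinc-finger transcription factor GATA4 was examined at 8 genes that encode transcription factors of the ETS family: Erg, Fli1, Ets1, Ets2, Elk3, Etv6, Elf1 and Elf2. They are 8 of 21755 protein-coding genes of chromosomes 1 to 19 and X and were taken from a list of names, which was drawn up with earlier results of these data known. Counts over them are therefore descriptions of chosen genes. Every peak of the authors' optimal list whose summit, the position of highest signal in the peak, lay in 1 of these genes or within 10 kb of it was counted. This gave 60 of 24050 summits, and no summit belonged to 2 of the genes. The assay was chromatin immunoprecipitation followed by sequencing (ChIP-seq) with a GATA4 antibody, in whole liver of healthy adult mice whose age and sex the labels do not give. The labels state no strain, genotype change or treatment, and there was 1 group of 2 samples, replicates 1 and 2. The labels give the 2 samples 1 shared biosample identifier and 1 shared donor identifier, so a difference between them may be technical. Whole liver is a mixture of hepatocytes, endothelial cells, macrophages, stellate cells and others, and a peak does not say which of them carried it. Peak lists hold no expression values, so the tissue label could not be checked against marker genes.

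ETS proteins bind DNA through a winged helix-turn-helix domain that recognises a GGAA core. Erg, Fli1 and Ets1 are best known from endothelial and blood cells, where enhancers often carry GATA and ETS sequences side by side. GATA4 recognises GATA sequences, and in the adult liver it is known above all from the sinusoidal endothelium and stellate cells.

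The lists differed in length. Replicate 1's own list past the authors' reproducibility threshold held 4287 peaks and replicate 2's held 26314, and read depth is not in the files. The optimal list was made from both replicates in an earlier run, and the replicates' own lists come from a later run. An optimal peak need not be in either replicate's own list. Presence in those lists therefore mixes differences between replicates with the change of run. Signal below is the authors' signal score, a number without a unit that ranks peaks within a list. The score of each replicate is that of the overlapping peak in its relaxed list, made without the reproducibility threshold. Each relaxed list holds 300000 peaks, so a peak not found there is only known to be outside those 300000. Scores were not set to a common scale between replicates. A replicate 1 score therefore describes that sample and is not compared in size with a replicate 2 score.

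The sequences that carried the strongest summits are shown first, because they show what GATA4 peaks at these genes look like. Each is the 101 bp around the summit on the plus strand of mm10, 5′ to 3′. Capitals mark copies of the GATA and ETS motifs on either strand. The GATA words searched were AGATAA and its variant AGATAG, and with another first base TGATAA and its variant TGATAG. The ETS words searched were AGGAAA and its variant AGGAAG, and with another first base CGGAAA and its variant CGGAAG. A copy on the minus strand is printed as its reverse complement. Across the optimal list 52.8% of summits had a GATA copy within 50 bp and 46% an ETS copy, so a match describes the sequence and is no proof of a bound site. The first 8 are the strongest summit of each gene.
Erg, chr16:95440019-95440119: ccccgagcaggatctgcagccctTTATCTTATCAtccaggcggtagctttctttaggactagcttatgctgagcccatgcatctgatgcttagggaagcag
Fli1, chr9:32519735-32519835: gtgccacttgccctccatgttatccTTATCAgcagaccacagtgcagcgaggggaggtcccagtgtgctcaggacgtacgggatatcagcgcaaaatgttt
Ets1, chr9:32674002-32674102: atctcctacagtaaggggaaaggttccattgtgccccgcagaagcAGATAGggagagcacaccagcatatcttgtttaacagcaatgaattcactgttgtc
Ets2, chr16:95708690-95708790: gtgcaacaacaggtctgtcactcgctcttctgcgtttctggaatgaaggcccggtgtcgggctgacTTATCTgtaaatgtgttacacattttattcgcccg
Elk3, chr10:93309302-93309402: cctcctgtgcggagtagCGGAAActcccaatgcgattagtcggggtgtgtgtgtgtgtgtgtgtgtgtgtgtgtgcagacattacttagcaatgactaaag
Etv6, chr6:134168132-134168232: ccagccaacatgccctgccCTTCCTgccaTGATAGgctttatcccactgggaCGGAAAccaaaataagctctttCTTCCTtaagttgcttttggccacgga
Elf1, chr14:79535487-79535587: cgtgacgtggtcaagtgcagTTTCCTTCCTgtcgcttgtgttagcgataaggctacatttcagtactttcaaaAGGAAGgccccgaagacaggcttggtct
Elf2, chr3:51349000-51349100: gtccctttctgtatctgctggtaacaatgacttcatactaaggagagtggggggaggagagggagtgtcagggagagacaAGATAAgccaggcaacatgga
Of these 8 summits, Etv6's held both motifs, 5 held GATA copies alone and 2, those of Elk3 and Elf1, held ETS copies alone. Erg's strongest summit had 2 overlapping GATA copies on the minus strand. The 3 summits below held both motifs and ranked among the 3 strongest of their gene.
Erg, chr16:95373083-95373183: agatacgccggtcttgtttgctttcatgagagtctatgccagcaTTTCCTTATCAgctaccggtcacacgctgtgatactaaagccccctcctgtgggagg
Etv6, chr6:134078155-134078255: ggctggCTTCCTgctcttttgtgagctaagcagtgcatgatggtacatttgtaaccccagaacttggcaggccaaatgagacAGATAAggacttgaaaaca
Elf1, chr14:79521884-79521984: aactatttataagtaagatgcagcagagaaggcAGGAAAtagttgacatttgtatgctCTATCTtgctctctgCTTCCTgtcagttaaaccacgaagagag
A last set was chosen after the values were seen. It holds the fourth strongest Erg summit, a summit in the first intron of Fli1, and an Etv6 summit in which a GATA copy lies between ETS copies that overlap it on both sides.
Erg, chr16:95382359-95382459: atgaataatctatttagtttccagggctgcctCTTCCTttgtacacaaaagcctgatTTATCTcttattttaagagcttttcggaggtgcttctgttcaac
Fli1, chr9:32529802-32529902: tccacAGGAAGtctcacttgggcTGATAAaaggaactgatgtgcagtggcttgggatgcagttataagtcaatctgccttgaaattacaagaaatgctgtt
Etv6, chr6:134144319-134144419: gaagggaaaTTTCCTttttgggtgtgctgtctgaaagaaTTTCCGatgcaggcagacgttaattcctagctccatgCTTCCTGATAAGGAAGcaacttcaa
In the second Erg sequence and the last Etv6 sequence, the GATA and ETS copies share bases, so the gap between them is 0 bp.

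All 8 genes had at least 1 GATA4 summit, where 47.6% of all protein-coding genes did. Ets1 had 13 summits, Erg and Etv6 12 each, Fli1 8, Elk3 and Elf1 5 each, Elf2 4 and Ets2 1. Of all protein-coding genes, 0.368% had at least as many summits as Ets1, 0.441% at least as many as Erg or Etv6, and 1.46% at least as many as Fli1. The genes are long, with a median length of 111.0 kb against 17.4 kb over all genes, and a long gene offers more room for a summit. Per 100 kb of gene and flanks, the median of the 8 genes was 4.79 summits, beside a median of 0 and a mean of 2.06 over all genes. By this measure Ets1 was densest, with 9.18 summits per 100 kb, and 4.06% of all genes were at least as dense. Ets2 was sparsest, with 2.57, a density that 30.7% of genes reached.

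**Figure D1:**
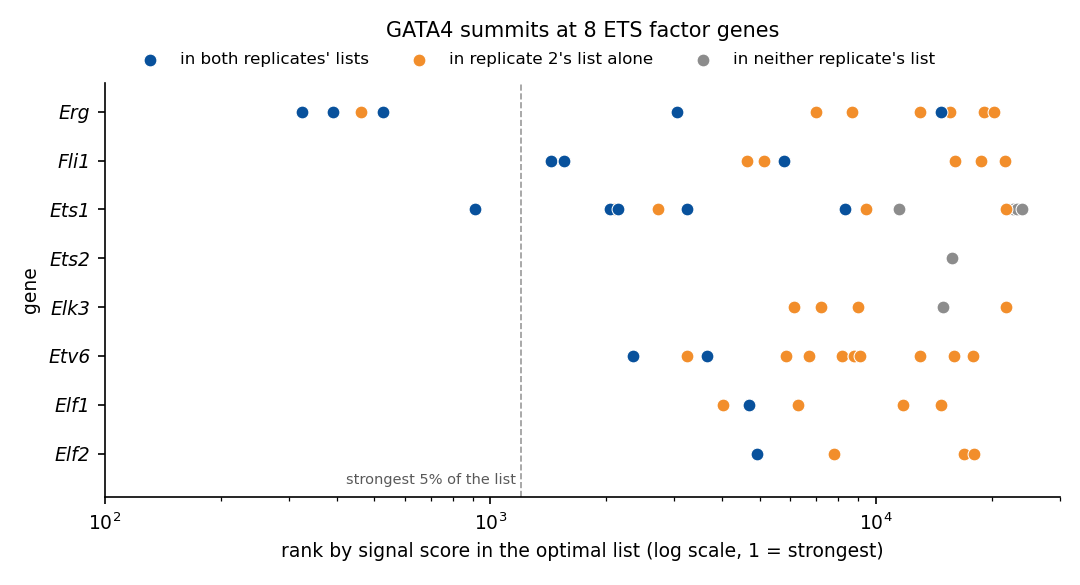
Rank by signal score in the optimal list (horizontal, log scale, 1 is the strongest) of each GATA4 summit at the 8 genes (vertical); colours give the replicates' own lists that hold the peak. Erg has 4 summits to the left of the dashed line that bounds the strongest 5% of the list and Ets1 has 1; the other genes have none.

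Erg encodes the ETS factor that maintains endothelial identity and vessel integrity. The gene lies at chr16:95359169-95586593 on the minus strand, and 11 of its 12 summits were inside it. Its 4 strongest summits were among the strongest 5% of the list, and 1.4% of all genes had a summit as strong as its best. That summit ranked 324 (peak chr16:95439953-95440190, signal 150.1), in intron 3 of Erg-206, 19176 bp downstream of the nearest Erg start site. Its signal was 54.5 in replicate 1 and 98.6 in replicate 2. The neighbouring peak at chr16:95439235-95439505 ranked 391, with 41.8 and 100.4 in replicates 1 and 2, and held 2 ETS copies and no GATA copy. Both peaks were in both replicates' lists.

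The other pair of strong Erg peaks lay towards the 3′ end of the gene. The peak at chr16:95373007-95373265 in intron 7 ranked 462 and had the overlapping GATA and ETS copies printed above. Its signal was 112.6 in replicate 2, the highest value of all 60 peaks there, and 24.2 in replicate 1. It was in replicate 2's own list and the conservative list but not in replicate 1's list. The peak at chr16:95382300-95382536 in intron 5 ranked 526, with 47.9 in replicate 1 and 85.0 in replicate 2, and was in both lists. Its GATA and ETS copies were 19 bp apart.

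A pair of overlapping Erg peaks lay at neighbouring internal start sites of the gene, from which shorter transcripts begin. They were at chr16:95459105-95459268 (rank 3048, 40 bp downstream of its nearest start site) and chr16:95459233-95459592 (rank 14724, 65 bp upstream of a different one). Both summits held a GATA and an ETS copy. They share 1 relaxed peak in each sample, with 24.5 in replicate 1 and 50.1 in replicate 2, so they are not separate measurements. None of the 12 summits lay further upstream than the summit of rank 14724, although the annotated gene extends far beyond it. The remaining 6 Erg summits ranked from 7015 to 20302, and all 6 were in replicate 2's list alone. Among all 12 Erg summits, 9 held a GATA copy, 9 an ETS copy and 7 both.

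Fli1 encodes the close relative of Erg that acts in endothelial cells and megakaryocytes. It lies at chr9:32422204-32542861 on the minus strand, and all 8 summits were inside the gene. The strongest, at chr9:32519675-32519901, ranked 1435 (signal 99.5) in intron 1, 21810 bp downstream of the start site. Its signal was 13.4 in replicate 1 and 87.7 in replicate 2. The promoter peak at chr9:32541414-32541730 ranked 1551, with its summit in exon 1, 22 bp downstream of the start site, in the 5′ untranslated region. It had neither motif within 50 bp, and its signal was 37.1 in replicate 1 and 63.9 in replicate 2. Replicate 1 thus had a higher score at the promoter than at the intron peak, and replicate 2 a higher score at the intron peak.

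All other Fli1 summits lay in intron 1 as well. The peak at chr9:32506188-32506547 ranked 4621, 35227 bp downstream of the start site, with 1 ETS copy and a signal of 6.6 in replicate 1 and 52.9 in replicate 2. The peak of rank 5136, whose sequence is printed above, lay 11743 bp downstream and had its GATA and ETS copies 12 bp apart, with 14.1 in replicate 1 and 50.1 in replicate 2. The remaining 4 summits ranked from 5769 to 21601. Replicate 1's own list held 5 summits at Fli1, among them 1 at chr9:32519128-32519467 (rank 4268 of that list) that overlaps no peak of the optimal list.

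Ets1, the founding member of the family, is known from lymphocytes and from new vessels. It lies at chr9:32636221-32757820 on the plus strand. The annotated interval begins far upstream of the gene's start sites in the basic annotation set, because it includes transcripts outside that set, such as Ets1-203. The strongest summit ranked 912 (peak chr9:32673965-32674160, signal 114.1), in intron 3 of Ets1-203 and 21970 bp upstream of the nearest such start site. Its signal was 35.7 in replicate 1 and 80.3 in replicate 2. The peak at chr9:32672567-32672732 ranked 2094, 23389 bp upstream, with 13.2 and 79.7 in replicates 1 and 2. It was in replicate 2's list and not in replicate 1's.

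Downstream of the 3′ end of Ets1 lay a close pair of peaks. They were at chr9:32760835-32760951 (rank 2041) and chr9:32761459-32761597 (rank 2147), both in both replicates' lists. The first had a signal of 26.1 in replicate 1 and 61.2 in replicate 2, and the second 20 in replicate 1 and 65.9 in replicate 2. The second held 1 GATA copy and 4 ETS copies spaced 4 bp apart, as a tandem GGAA repeat gives.

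The Ets1 promoter ranked near the end of the list. Its peak at chr9:32695745-32696104, 97 bp upstream of a start site, ranked 21747, had a signal of 24.6 in replicate 2 and was not found in replicate 1's relaxed list. The other 8 Ets1 summits ranked from 2718 to 23911, the best of them in exon 7 of Ets1-201. Ets1 held 4 of the 6 summits that were in neither replicate's list. A pair of these 4, in intron 1 of Ets1-201, overlap and share 1 relaxed peak in each sample, with 8.9 in replicate 1 and 11.8 in replicate 2.

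Ets2, a widely expressed factor that mitogen-activated kinases phosphorylate, had the fewest summits. The gene is 19 kb long, at chr16:95702075-95721051 on the plus strand. Its single summit ranked 15765 (peak chr16:95708560-95708919, signal 29.5), in intron 2 of Ets2-201 and 6665 bp downstream of the start site. It was not found in replicate 1's relaxed list, its signal was 23.9 in replicate 2, and neither replicate's own list overlapped it. Replicate 2's list had 2 other summits at Ets2, in peaks at chr16:95702314-95702673 (rank 16675 of that list) and chr16:95729070-95729429 (rank 23855), and the later run's pooled list also had 2. Of all genes, 36.7% had a summit at least as strong.

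Elk3 encodes a ternary complex factor, which binds DNA together with serum response factor. The gene lies at chr10:93247414-93311135 on the minus strand, and none of its 5 peaks was in replicate 1's list. The strongest ranked 6118 (peak chr10:93309172-93309531, intron 1, 1617 bp downstream of a start site), with 14.4 in replicate 1 and 36.7 in replicate 2. Its window holds a long run of GT repeats. The promoter peak at chr10:93285529-93285888 ranked 7193, lay 734 bp upstream of an internal start site and held 2 ETS copies, with 4.5 in replicate 1 and 41.1 in replicate 2. The third, at chr10:93239451-93239810 (rank 8991, 8.3 and 30.9), and the peak of rank 14895 lay outside Elk3 in the neighbouring gene Cdk17. The summit of rank 8991 was in an untranslated part of an exon.

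Etv6 encodes a transcriptional repressor that blood stem cells of the bone marrow need. It is the longest of the 8 genes, 234.5 kb at chr6:134035700-134270158 on the plus strand, and 11 of 12 summits were in its introns 1 to 3. The strongest, at chr6:134168002-134168361, ranked 2342 (signal 83.3), 132482 bp downstream of the start site, with 18.1 in replicate 1 and 65.8 in replicate 2. It held 1 GATA copy and 3 ETS copies, the nearest 4 bp away. The peak at chr6:134161058-134161259 ranked 3230, with 10.6 and 63.7, and held a GATA copy alone. The peak at chr6:134078025-134078384 ranked 3656, with 16.2 and 49.8, and its GATA and ETS copies were 70 bp apart.

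The Etv6 promoter peak at chr6:134035025-134035384 ranked 5833 and lay 495 bp upstream of the start site. It held 1 ETS copy and no GATA copy, and its signal was 8.5 in replicate 1 and 48.3 in replicate 2. All 12 Etv6 peaks were in replicate 2's list, and those of rank 2342 and 3656 were also in replicate 1's. The other 8 ranked from 6715 to 17883, and the summit of rank 8791 held the GATA copy between ETS copies that is printed above.

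Elf1 and Elf2 are paralogs of the ELF subfamily, expressed widely and studied in blood cells. Elf1 lies at chr14:79481194-79582494 on the plus strand. Its strongest peak, at chr14:79535357-79535716, ranked 4009 (intron 1, 19851 bp downstream of a start site), with 14.1 in replicate 1 and 50.7 in replicate 2, and held 3 ETS copies and no GATA copy. The peak at chr14:79500736-79501095 ranked 4690, with 17.6 and 40.3, held 2 GATA copies, and was the only Elf1 peak in both replicates' lists. The peak at chr14:79521754-79522113 ranked 6295, with 6.3 and 44.6, and held 1 GATA and 2 ETS copies.

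The 5′ end of Elf1 abuts the gene Wbp4, and the 2 promoter peaks there cannot be assigned to 1 gene. The peak at chr14:79481835-79482194 ranked 11736, and its nearest start site was that of Wbp4, 495 bp away. It held both motifs, with 6.1 in replicate 1 and 36.7 in replicate 2. The peak at chr14:79480888-79481247 ranked 14733, 126 bp upstream of the Elf1 start site, held neither motif, was not found in replicate 1's relaxed list and had 28.8 in replicate 2.

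Elf2 lies at chr3:51252720-51340663 on the minus strand. Its strongest peak, at chr3:51348870-51349229, ranked 4917 and lay 8387 bp upstream of the gene, with 16.8 in replicate 1 and 42.3 in replicate 2. It was the single Elf2 peak in both replicates' lists. The peak at chr3:51278471-51278830 ranked 7795, with 12.5 and 32.1, 1076 bp upstream of an internal start site. The peak at chr3:51277240-51277599 ranked 16887, with its summit 5 bp from another internal start site. It held 1 ETS copy, was not found in replicate 1's relaxed list and had 25.8 in replicate 2. The fourth ranked 17961.

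**Figure D2:**
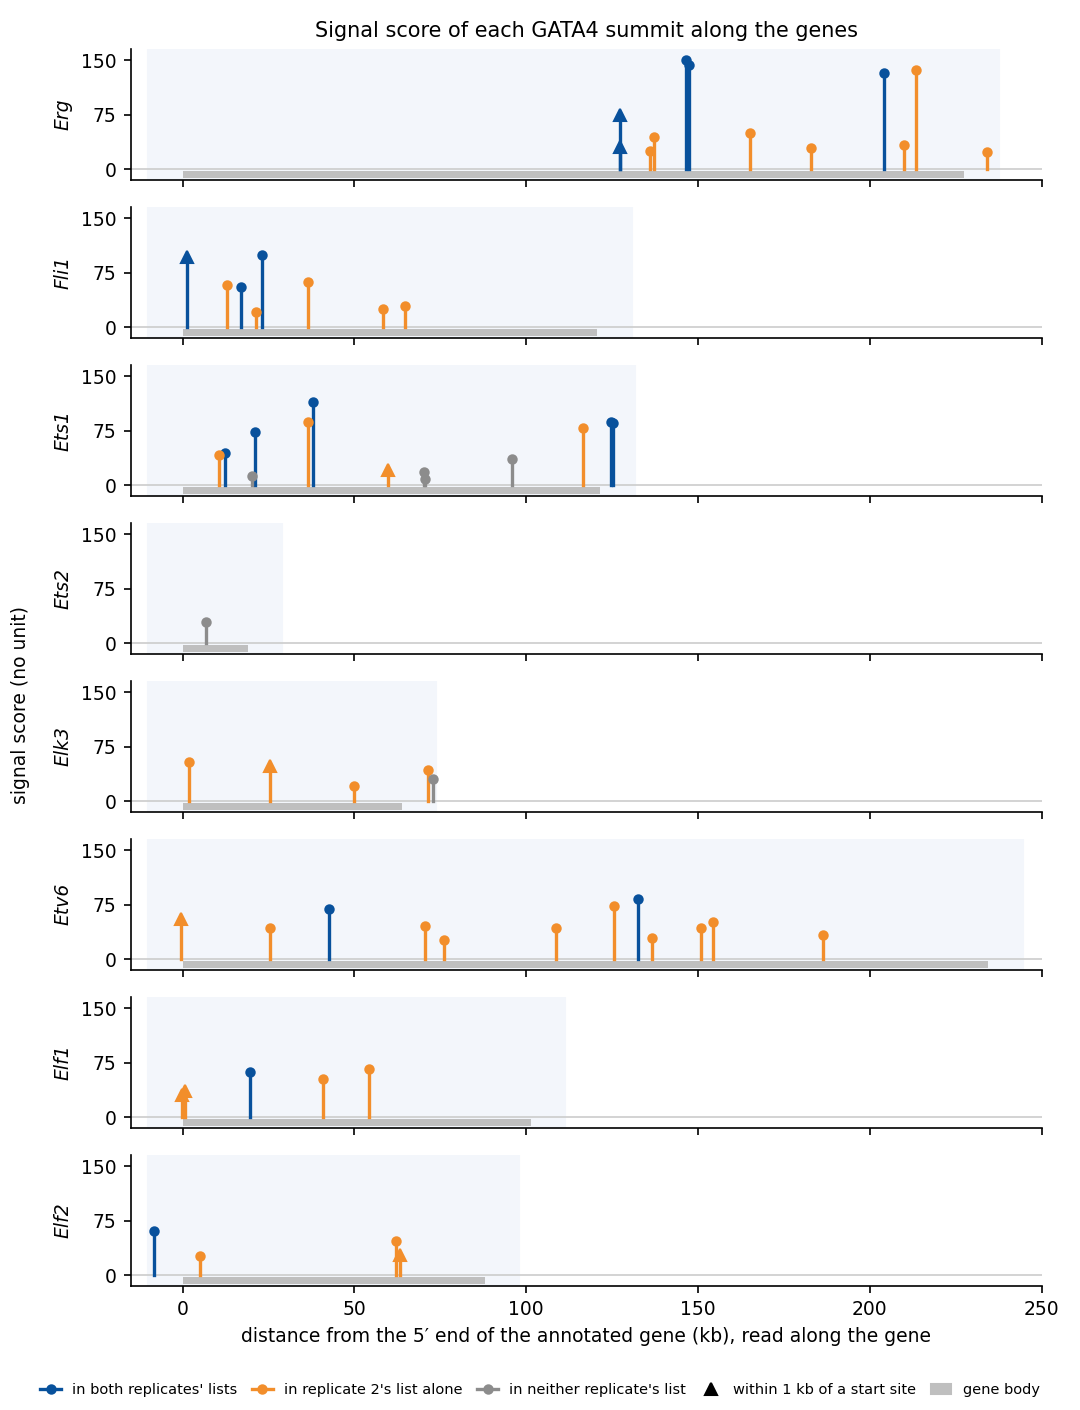
Signal score in the optimal list (vertical, no unit) of each summit by its distance from the 5′ end of the annotated gene (horizontal, kb, read along the gene); grey bars are gene bodies, shaded spans add 10 kb to each side, triangles are summits within 1 kb of a start site and colours give the replicates' lists. Erg's summits lie at its internal start sites or beyond them towards and past the 3′ end, and Fli1's and Etv6's strongest summits lie inside introns.

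Of the 60 summits, 45 were in introns, 9 at promoters (within 1 kb of a protein-coding start site), 4 between genes and 2 in exons (3.33%, beside 2.33% of all summits). The intron share was 75%, beside 40.4% of all summits, and the promoter share 15%, beside 21.6%. The rule counts summits in or near genes, which lowers the intergenic share (6.67% against 35.7%) and raises the intron share by its construction. Promoter summits were found at Erg (2), Elf1 (2), Fli1, Ets1, Elk3, Etv6 and Elf2, and Ets2 had none. They ranked from 1551 at Fli1 to 21747 at Ets1, so no promoter summit was among the strongest 5% of the list.

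The summits at these genes stood towards the strong end of the list. With all 24050 summits divided by signal into 5 bins of equal size, the strongest bin held 19 of the 60, the next 18, and the following ones 4, 12 and 7. The strongest 5% held 5 of 60, or 8.33% (95% Wilson interval 3.6 to 18.1, which covers counting error over peaks only). The median signal was 45.3 over the 60 summits and 35.8 over all. No test was made, because summits of 1 gene are neighbours in the same 2 samples and are not replicates.

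Of the 60 peaks, 17 were in both replicates' lists, 37 in replicate 2's alone, 6 in neither and 0 in replicate 1's alone. The share in both lists was 28.3% (18.5 to 40.8), beside 16.3% of all optimal peaks. Replicate 1's list held 28.3% of the 60 peaks and 17% of all, and replicate 2's list 90% and 82.5%. The conservative list held 31 of 60, or 51.7% (39.3 to 63.8), beside 38.2% of all peaks. The later run's pooled list held 52, or 86.7%, beside 83.2%. Peaks in both lists were stronger in the optimal list, with a median signal of 83.3, than those in replicate 2's list alone (42.9) or in neither (23.8). The same order held over all optimal peaks, with medians of 80.1, 36.0 and 23.9, so it is no trait of these genes. Peaks in both lists were found at Erg and Ets1 (5 each), Fli1 (3), Etv6 (2), and Elf1 and Elf2 (1 each), and at neither Elk3 nor Ets2. Replicate 2's list held 66 summits at the 8 genes, and 13 of them overlap no optimal peak, 5 at Etv6, 4 at Elf1, 2 at Ets2 and 1 each at Fli1 and Elf2.

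Taken by list, replicate 1 reached 6 of the 8 genes, where 11.4% of all genes had a summit of that list. Replicate 2 reached all 8, where 51.8% did, and the conservative list 7, where 21.9% did. The later run's pooled list reached all 8, where 47.2% did. Ets2 was the gene that the conservative list missed. In the relaxed lists a peak overlapped 48 of the 60 in replicate 1, with signals from 4.4 through a median of 11.0 to 54.5. Replicate 2 had all 60, from 11.8 through 36.7 to 112.6. Erg held the 3 highest values in both samples, 54.5, 47.9 and 41.8 in replicate 1 and 112.6, 100.4 and 98.6 in replicate 2, and Fli1 the next in each.

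**Figure D3:**
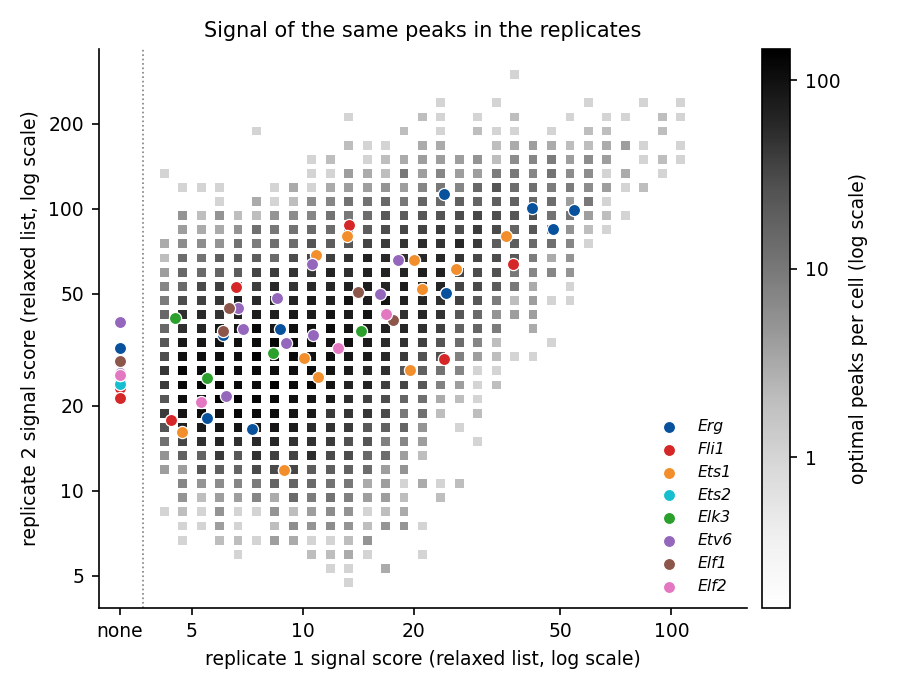
Signal score of the overlapping relaxed-list peak in replicate 1 (horizontal) and replicate 2 (vertical), both on log scales, for the 60 peaks at the ETS factor genes (coloured points) over all optimal peaks found in both (grey squares, darker for more peaks). The points at "none" are the 12 peaks not found in replicate 1's relaxed list; the 4 strongest Erg peaks lie at the upper right.

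GATA copies stood within 50 bp of 35 of the 60 summits, or 58.3% (45.7 to 69.9), beside 52.8% of all summits. ETS copies stood within 50 bp of 37, or 61.7% (49.0 to 72.9), beside 46%. The interval for GATA copies spans the share over all summits. The interval for ETS copies lies above it over all 60 summits, but not over the 51 outside promoters or in replicate 1's own list, where 44.4% of 18 summits held an ETS copy, beside 42.2% of that list. Both motifs were present at 17, or 28.3% (18.5 to 40.8), beside 23.2%, and 5 summits had neither. In windows of equal length 500 bp to each side, the shares were 15% for GATA and 23.3% for ETS, near the 16% and 25.6% around all summits. Copies of both motifs were thus denser at these summits than beside them.

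Promoter and other summits were also counted apart. Of the 9 promoter summits, 7 held an ETS copy and 3 a GATA copy, beside 42.3% and 25.7% of all promoter summits. Of the 51 other summits, 32 held a GATA copy (62.7%, beside 60.3%) and 30 an ETS copy (58.8%, with an interval of 45.2 to 71.2 that spans the 47% of all such summits). Both motifs were at 3 of the 9 promoter summits, beside 10.1% of all promoter summits, and at 14 of the 51 others (27.5%, beside 26.9%). These 3 promoter summits were the overlapping Erg pair, which are not separate measurements, and the Elf1 peak nearest to the Wbp4 start site. They are the same 3 that held a GATA copy. The longer ETS words CAGGAAG and CCGGAAG, each of which contains a shorter one, were at 16 of 60 summits, or 26.7% (17.1 to 39.0), beside 15.3% of all. AGATAA alone, the most studied GATA word, was at 26.7%, beside 27.2%.

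By gene, the motif make-up varied. GATA copies were at 9 of 12 Erg summits, 5 of 8 at Fli1, 6 of 13 at Ets1, 7 of 12 at Etv6, 3 of 5 at Elf1, 2 of 4 at Elf2 and 2 of 5 at Elk3. ETS copies were at 9 of 12 Erg summits, 4 of 8 at Fli1, 8 of 13 at Ets1, 7 of 12 at Etv6, 3 of 5 at Elf1, 2 of 4 at Elf2 and 4 of 5 at Elk3. Erg held 7 of the 17 summits with both. Where both were present, the nearest GATA and ETS copies were 0 to 70 bp apart with a median of 12 bp, and 11 of 17 (64.7%) were within 20 bp. Over all 5588 summits with both, the median was 14 bp and 62.5% were within 20 bp, so the spacing at these genes was close to that of the whole list.

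**Figure D4:**
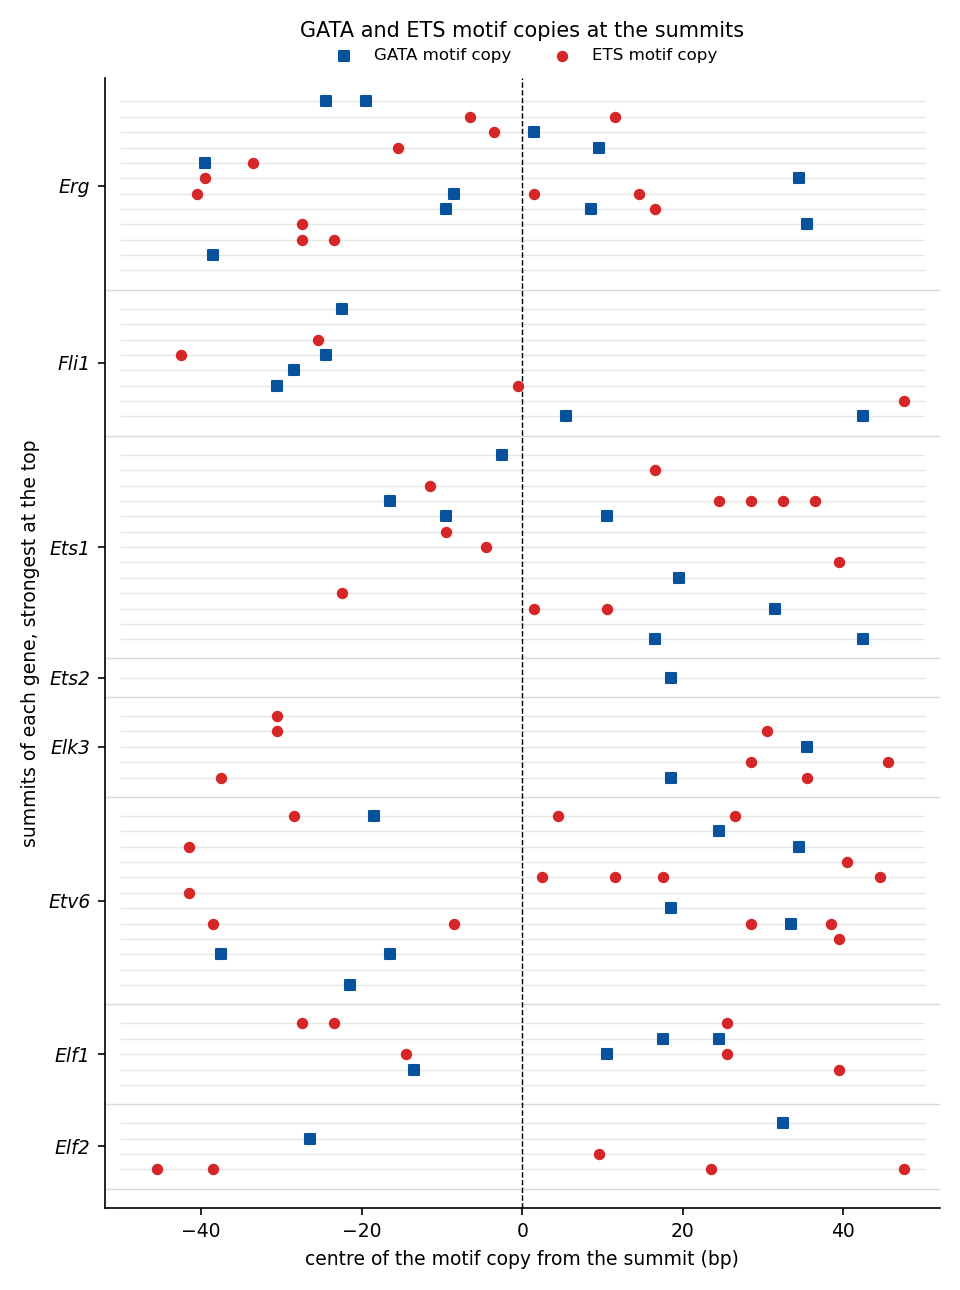
Position of each GATA (squares) and ETS (circles) motif copy relative to the summit (horizontal, bp, on the plus strand of the genome) at the 60 summits, one line per summit, grouped by gene with the strongest at the top. The 9 Erg summits with a GATA copy and the 9 with an ETS copy overlap in 7 lines; 5 of the 60 lines have no copy.

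Words of other factors were searched for comparison. AGGTCA, the half-site of nuclear receptors such as those of hepatocytes, was at 2 of 60 summits, or 3.33% (0.9 to 11.4), beside 11.8% of all summits. CAGCTG, an E-box, was at 3.33% (0.9 to 11.4), beside 7.68%. GGGCGG, which SP factors bind, was at 6.67% (2.6 to 15.9), beside 9.33%, and the AP-1 words TGACTCA and TGAGTCA at 1.67% (0.3 to 8.9), beside 2.45%. The interval lay below the share of all summits for AGGTCA and spanned it for the other 3. It covers counting error over peaks only and is no test, and no shares by class are given for these words.

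**Figure D5:**
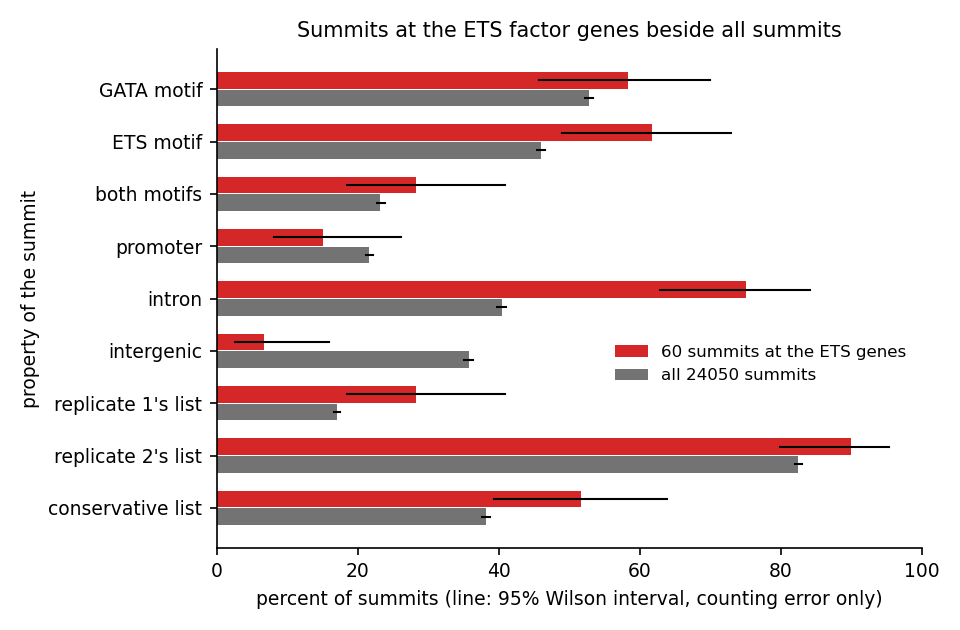
Percent of the 60 summits at the ETS factor genes (red) and of all 24050 summits (grey) with each property (vertical); lines are 95% Wilson intervals that cover counting error over peaks only. The ETS motif share is 61.7% against 46% and the GATA motif share 58.3% against 52.8%.

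Erg and Ets2 are neighbours on chromosome 16 and Fli1 and Ets1 on chromosome 9, with 115.5 kb and 93.4 kb between them. The rule leaves out most of these intervals. Between Erg and Ets2 lay 4 summits, and the strongest ranked 35 of 24050, ahead of every summit at the 8 genes. This peak, at chr16:95636703-95636952, had an optimal signal of 226.4, with 64.3 in replicate 1 and 163.5 in replicate 2, and was in both replicates' lists. It lay 50.2 kb from Erg and 65.3 kb from Ets2, and nothing in these data assigns it to a gene. Its sequence, with 1 GATA copy and no ETS copy, is shown because of that rank.
Between Erg and Ets2, chr16:95636771-95636871: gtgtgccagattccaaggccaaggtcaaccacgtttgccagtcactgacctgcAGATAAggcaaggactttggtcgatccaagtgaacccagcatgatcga
The others there ranked 1693 (19.5 kb from Ets2), 4738 and 16679. Between Fli1 and Ets1 lay 1 summit, of rank 11646.

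Of the other 18 genes of the ETS family, 9 had a summit, beside 47.6% of all genes and 8 of the 8 described above, and these 9 held 10 summits in all. Their median length was 16.4 kb, and their median density 0.64 summits per 100 kb, beside 4.79. The strongest ranked 5615, near Erf, but it lay at the promoter of the neighbouring gene Gsk3a. Elf5 followed at 8937, Ehf at 10813, Elk4 at 14299, Etv2 at 15440 (at the promoter of Cox6b1) and Spdef at 15557. None of the 10 was in replicate 1's list, which held 17% of all optimal peaks and 6.14% of those at promoters. Fev, Elk1, Etv1, Etv4, Elf3, Elf4, Spi1, Spib and Spic had no summit. The difference between the 2 groups of genes was not tested.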

How the data were processed

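Per the file headers and the labels, the authors deposited narrowPeak lists on mm10 from an earlier run (optimal, conservative and relaxed lists) and a later run (each replicate's thresholded and ranked lists, a pooled and a conservative list). Which aligner and caller they used is not given in the sources used here. Authors' scores were used as deposited to rank and filter peaks, and signal scores are also given as values and medians. They were the signal score (column 7) and the reproducibility score (125 × −log2 of the irreproducible discovery rate, at most 1000). The least reproducibility score was 537 in the optimal list and 540 in the replicates' lists, and read depth is unknown.

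Of 24083 optimal peaks, 33 outside chromosomes 1 to 19, X and Y were left out. Summits were placed against GENCODE mouse release 21 and GRCm38.p6 sequence, with positions counted from 1. Lists overlapped where peaks shared at least 1 base. Python 3.11.15, pandas 2.3.3, numpy 2.4.6, scipy 1.17.1, pysam 0.24.0, samtools 1.23.1 and matplotlib 3.10.9 were used, and the code was tested on simulated data. There was no contrast and no test: counts stand beside those over all genes or summits, with Wilson intervals at 95%.

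Genes and lists were chosen with earlier results of these data known. For each gene the 3 strongest summits, promoter summits and those among the strongest 5% are given, and at most 6 other ETS genes by rank. Alternatives were other peak lists, links to genes, motif words and windows, promoter distances and overlaps.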

Additional observations from a re-analysis of the deposited data

How the results depend on the processing

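All 8 genes kept a summit in replicate 2's list, the later pooled list, gene bodies, nearest start sites and 50 kb windows. In the conservative list, at an IDR of at most 0.01 and within 5 kb of start sites 7 did, and in replicate 1's list 6. At that IDR 36.8% of all genes had a summit. For the other links to genes no share over all genes is given, so those counts, also of other ETS genes, stand without a background. The 60 summits became 18 in replicate 1's own list, 66 in replicate 2's, 31 in the conservative list and 11 within 5 kb of start sites. No list was made anew without a replicate. The replicates' own lists come from the later run, so replicate, run and list length changed together. Other ETS genes with a summit, 9 of 18, became 0 to 10 without a replicate, 3 in the conservative list, 4 in gene bodies, 4 within 5 kb of start sites and 16 within 50 kb. The GATA share of 58.3% became 54.5% in replicate 2's list and 72.2% in replicate 1's, beside 49.1 and 67.3% of all peaks of those lists. It was 26.7% for AGATAA alone and 15% beside the summits. The ETS share of 61.7% became 66.7% in replicate 2's list, beside 45.8% of all its peaks. It was 64.5% in the conservative list, beside 47.2%, and 66.7% at an IDR of at most 0.01, beside 47.7%. It was 78.3% within 100 bp, 26.7% for the longer words and 23.3% beside the summits. In replicate 1's list alone (18 summits) the ETS share, 44.4%, was near that list's 42.2% over all its peaks. Summits with both motifs rose from 28.3% to 50% within 100 bp. A window of 100 bp gives any summit more room for a copy, and no share over all summits is given for it. Without the threshold, replicate 1's list held 56.7% of peaks and replicate 2's 96.7%. A count was taken to have moved when it changed by over 1.5 times, and a share when it left the 95% interval of the reported one. By this, 18 such values moved and 47 did not, and of counts per gene 37 moved and 35 did not. The causes were not tested. No paired analysis was possible because there was 1 group and no contrast. Read depth is unknown, so a missing peak in replicate 1 shows no absence of binding.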

Other observations

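Some GATA4 summits whose nearest protein-coding start site belongs to 1 of these ETS genes lay beyond 10 kb of it. Ets1 had 14 such summits, all downstream of the gene, between 174.3 and 405.1 kb from its start site. Of these 14, 13 were in replicate 2's list and 7 in replicate 1's. The strongest, of rank 529, had its summit on chromosome 9 at 33101469, and another at 32977932 ranked 965. With these, Ets1 was the nearest gene of 27 summits. The distance does not link them to Ets1, and non-coding genes in between were not considered.

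Elk3 had 6 such summits, all upstream, between 14.8 and 65.5 kb from a start site. The nearest and strongest ranked 2171, ahead of every summit inside the 10 kb window of Elk3, was in both replicates' lists and held a GATA and an ETS copy. Ets2 had 7, of which 2 lay between it and Erg. Erg had 2, of ranks 35 and 16679, and Fli1 had 1, of rank 11646, all given above among the summits between neighbouring genes. Etv6 and Elf1 had none, and Elf2 had 1, of rank 9243. Counts per gene thus depend on the link used: by nearest start site Ets1 went from 13 summits to 27, Elk3 from 5 to 11 and Ets2 from 1 to 8, and within 50 kb Elf2 went from 4 to 10.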
